A study of Drosophila melanogaster with 2 samples.

Results

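The mitochondrial ribosomal protein (mRp) genes were taken as the protein-coding genes of the Drosophila melanogaster annotation whose symbols begin with mRpL or mRpS. This rule found 73 genes of 13986 coding genes, 47 for the large subunit (mRpL) and 26 for the small subunit (mRpS). The rule uses the symbol alone and no peak value. For each gene, peak summits of CG17568 within 500 bp of an annotated transcription start site (TSS) were collected. The small-subunit protein genes tko and bonsai, which have other symbols, fall outside the rule and had no summit in any list.

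CG17568 is a predicted zinc finger protein whose sites were mapped by chromatin immunoprecipitation and sequencing (ChIP-seq) in whole embryos of mixed sex, 0 to 20 h old. The embryos came from a single transgenic line in which CG17568 carries GFP at its C terminus, and all cell types of the embryo were pooled. The series has 1 group with 2 biological replicates and no other condition. The assay field and antibody field name a ChIP against CG17568, whereas a free-text note on each sample describes it as input. They were read here as ChIP, and every value depends on that reading. The control experiment was not analysed here.

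The mitochondrial ribosome translates the few messenger RNAs encoded by mitochondrial DNA, most of which specify subunits of the respiratory chain. Its ribosomal RNAs come from mitochondrial DNA, but its proteins are encoded by nuclear genes, made on cytosolic ribosomes and imported. The large subunit carries the peptidyl transferase centre and the exit tunnel, and the small subunit binds the messenger RNA and decodes it. Many of these proteins have bacterial counterparts, while others are found only in mitochondrial ribosomes.

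The authors deposited 4 peak lists. Relaxed lists of 30000 peaks each were called on replicate 1, on replicate 2 and on both pooled. The list thresholded by irreproducible discovery rate (IDR) held 3396 peaks, which were the 3396 pooled peaks of highest signal. Signal is a peak score assigned by the authors' caller on a scale that is not stated, and it served only to rank peaks within a list, with rank 1 the highest. The read depth of the replicates is unknown. No p-value is given below, since genes are not replicates of a condition.

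An IDR summit lay at 10 of the 73 mRp genes, and 8 of these summits also lay within 500 bp of the start of a gene transcribed in the opposite direction. Of all coding genes 10.1% had an IDR summit, and 31.7% of those shared it in this way. With or without a peak, such a neighbour within 1000 bp upstream was present at 79.5% of mRp genes and 36.2% of coding genes. The sequences around 5 of the summits are shown first, as examples of the DNA at the centre of mRp peaks that lie upstream of the gene. Each run covers 50 bases on either side of the summit in the Release 6 genome (dm6), 5′ to 3′ on the strand of the mRp gene, and capitals mark the TATA word TATAAA. mRpS23 is chr2L:13835422-13835522 on the minus strand, and mRpL20 is chr3L:13018087-13018187 on the minus strand. mRpS6 is chr3L:4364400-4364500 and mRpS26 is chr3L:18106357-18106457, both on the plus strand. mRpL19 is chr3R:8673920-8674020 on the plus strand.
mRpS23: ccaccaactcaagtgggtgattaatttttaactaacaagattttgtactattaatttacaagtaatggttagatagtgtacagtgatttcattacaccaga
mRpL20: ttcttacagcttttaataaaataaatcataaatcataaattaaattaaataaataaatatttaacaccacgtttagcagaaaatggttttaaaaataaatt
mRpS6: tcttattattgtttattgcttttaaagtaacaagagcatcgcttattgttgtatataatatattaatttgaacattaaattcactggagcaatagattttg
mRpL19: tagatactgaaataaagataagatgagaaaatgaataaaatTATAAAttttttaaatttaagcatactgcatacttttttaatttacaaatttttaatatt
mRpS26: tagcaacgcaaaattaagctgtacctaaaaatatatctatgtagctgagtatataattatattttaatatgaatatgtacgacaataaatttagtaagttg

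These runs are rich in A and T. G and C made up a median of 23.8% of the bases within 50 bp of the 10 mRp summits, with a range of 14.9% to 49.5%, against a median of 34.7% around the 1323 IDR summits at coding promoters and 41.6% in their flanks, centred 300 bp to either side. The lowest value was at mRpL19 and the highest at mRpS11, whose summit lies 8 bp from its start. mRpS2 had 16.8% and mRpL20 had 15.8%. The sets were not matched for position: 9 of the 10 mRp summits lay upstream, against 72.5% over coding genes with an IDR summit. In windows of 250 bp upstream to 50 bp downstream of the 5′-most start, the median was 34.6% in mRp promoters and 37.9% in coding promoters. With a divergent neighbour these medians were 35.9% and 36.5%.

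A further set of runs shows whole stretches between the start site of an mRp gene and that of its divergent neighbour, since there a single summit lies in front of both genes. The mRpS2 stretch, shared with Mon1, is chr2L:4850420-4850640, has 221 bases and holds the summit at base 94. The mRpL21 stretch, shared with rept, is chr3L:19255062-19255339, has 278 bases and holds the summit at base 119. The mRpL24 stretch, shared with betaggt-I, is chr2L:4945362-4945578, has 217 bases and holds the summit of a peak called in replicate 2 alone at base 87. All 3 are on the minus strand, run 5′ to 3′ from the neighbour towards the mRp gene, and have bases counted from 1 at the neighbour's end. Capitals mark the E-box CAGCTG and the TATA word TATAAA or its reverse complement TTTATA.
mRpS2: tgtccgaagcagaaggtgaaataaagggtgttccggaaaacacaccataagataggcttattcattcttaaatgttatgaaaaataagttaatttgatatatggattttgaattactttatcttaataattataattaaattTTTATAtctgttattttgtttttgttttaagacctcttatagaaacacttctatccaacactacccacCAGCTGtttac
mRpL21: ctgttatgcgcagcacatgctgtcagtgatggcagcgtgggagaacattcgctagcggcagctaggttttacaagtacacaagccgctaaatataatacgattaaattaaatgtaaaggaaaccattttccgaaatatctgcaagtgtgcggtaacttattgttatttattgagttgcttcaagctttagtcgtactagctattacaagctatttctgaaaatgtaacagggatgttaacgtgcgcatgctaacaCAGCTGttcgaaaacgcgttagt
mRpL24: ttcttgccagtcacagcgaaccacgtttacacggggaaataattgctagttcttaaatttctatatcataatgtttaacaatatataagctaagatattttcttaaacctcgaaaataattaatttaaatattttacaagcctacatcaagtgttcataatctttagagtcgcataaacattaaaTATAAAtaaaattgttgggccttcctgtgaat

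In the mRpS2 and mRpL21 stretches the E-box starts 11 and 23 bp upstream of the mRp start site, and its centre lies 120 and 140 bp from the summit. G and C made up 28.1% of the mRpS2 stretch, 40.3% of the mRpL21 stretch and 28.6% of the mRpL24 stretch.

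IDR summits were present at 10 of 73 mRp genes (13.7%), against 1406 of 13986 coding genes (10.1%). In the pooled relaxed list the counts were 23 mRp genes (31.5%) and 4077 coding genes (29.2%). The relaxed list of replicate 1 had a summit at 27 mRp genes (37.0%), against 30.2% of coding genes, and that of replicate 2 at 26 mRp genes (35.6%), against 32.8%. All of these shares lie near those of coding genes in general. Among genes with a pooled relaxed summit, 10 of 23 mRp genes (43.5%) had an IDR summit, against 34.5% of coding genes. Cut to its 3396 highest peaks, replicate 1 gave 10 mRp genes (13.7%), against 10.2% of coding genes, and replicate 2 gave 13 (17.8%), against 11.5%. Both cut lists held 8 mRp genes, replicate 1 alone a further 2 and replicate 2 alone a further 5.

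By subunit, 5 of 47 mRpL genes (10.6%) and 5 of 26 mRpS genes (19.2%) had an IDR summit. The order depended on the replicate. Among the 3396 highest peaks, replicate 1 had summits at 7 mRpL genes (14.9%) and 3 mRpS genes (11.5%), and replicate 2 at 7 mRpL genes (14.9%) and 6 mRpS genes (23.1%). In the pooled relaxed list, 13 mRpL genes (27.7%) and 10 mRpS genes (38.5%) had a summit. No summit lay within 500 bp in any list at 42 mRp genes (57.5%), 29 mRpL and 13 mRpS, against 61.9% of coding genes. By chromosome arm, IDR summits lay at 0 of 11 mRp genes on X, against 8.79% of coding genes there, and at 2 of 12 on 2L, against 11.7%. They lay at 1 of 12 on 2R, against 8.52%, at 5 of 17 on 3L, against 11.6%, and at 2 of 21 on 3R, against 9.50%.

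**Figure D1:**
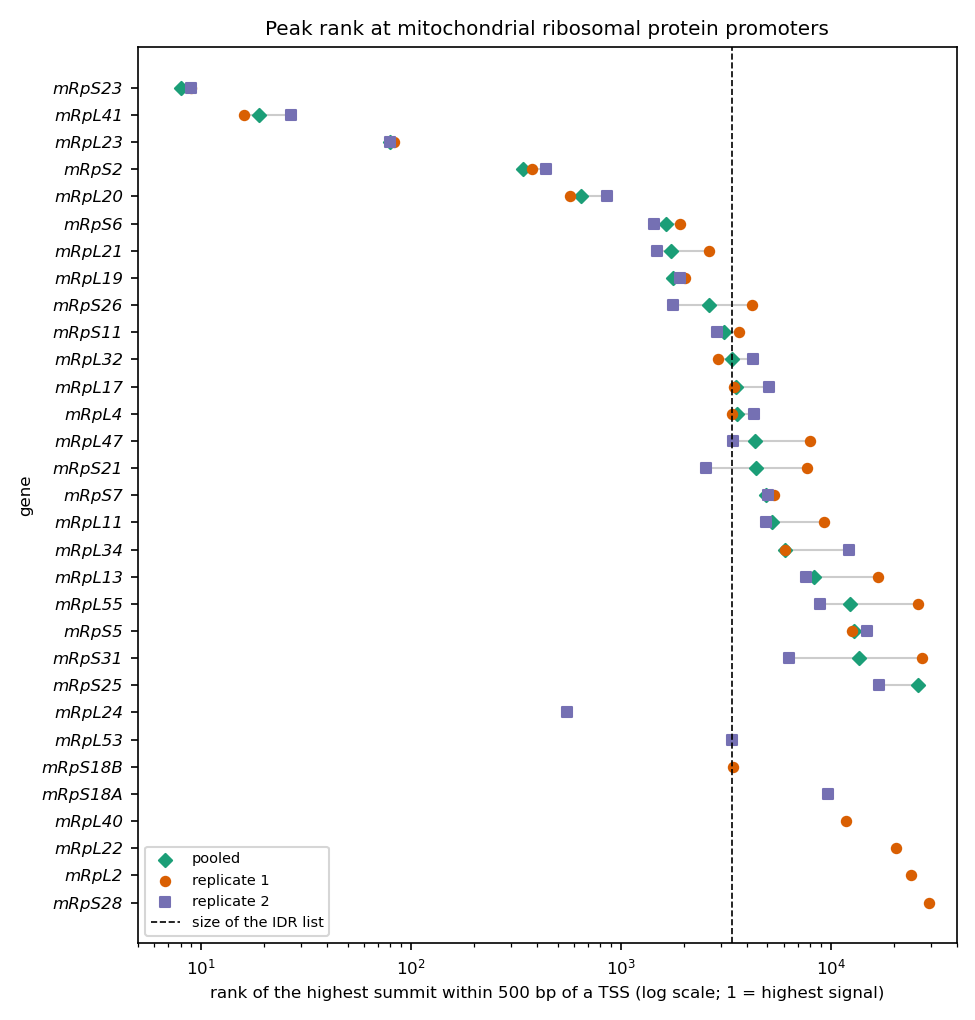
Rank of the highest summit within 500 bp of a TSS at the 31 mRp genes with a summit in at least 1 relaxed list, on a log axis where 1 is the highest signal. Diamonds are the pooled list, circles replicate 1 and squares replicate 2, and the dashed line marks rank 3396, where the IDR list ends. The markers of mRpS23, mRpL41 and mRpL23 nearly coincide, while those of the lower genes lie farther apart.

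Among the small-subunit genes, mRpS23 (2L, 13834250 to 13835072, minus strand), a protein found only in mitochondrial ribosomes, had the highest peak. It ranked 8 in the IDR list, with a signal of 1737.3, and 9 in both replicate 1 and replicate 2. Its summit at position 13835472 lay 400 bp upstream of the mRpS23 start and 92 bp from that of CenG1A, a GTPase-activating protein of the Arf family. The peak is near the top of every list, but stands closer to the neighbour than to the ribosomal gene.

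mRpS2, the counterpart of bacterial protein S2 (2L, 4849439 to 4850419, minus strand), ranked 344 in the IDR list with a signal of 442. Its peak ranked 377 in replicate 1 and 440 in replicate 2, and its summit lay 128 bp upstream. The divergent gene Mon1, which acts in endosome and vesicle traffic, starts 94 bp from the same summit. mRpS6 (3L, 4364550 to 4365243, plus strand), counterpart of bacterial S6, ranked 1648 with a signal of 192, and 1917 in replicate 1 and 1443 in replicate 2. Its summit lay 100 bp upstream, with the start of Cip4, an F-BAR membrane protein, 348 bp away on the other side.

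The other small-subunit sites stood in the lower part of the IDR list. mRpS26 (3L, 18106579 to 18107499, plus strand), found only in mitochondrial ribosomes, ranked 2639 with a signal of 146, 172 bp upstream of its start and 258 bp from CG13698. Replicate 2 had a summit 95 bp away at rank 1784, but the nearest in replicate 1 was 106 bp away at rank 4233. A further summit of replicate 2, at rank 2782, lay at -67 bp from the mRpS26 start, next to that of replicate 1 at -66 bp. mRpS26 was the only mRp IDR summit without a counterpart within 100 bp in both replicates, and 9 of 10 (90%) had one, against 93.0% of coding genes with an IDR summit. mRpS11 (3R, 17072732 to 17073795, plus strand), counterpart of bacterial S11 on the platform of the small subunit, ranked 3103 with a signal of 133. It ranked 3655 in replicate 1 and 2870 in replicate 2, its summit lay 8 bp upstream, and Ns1, a nucleostemin-family GTPase, starts 49 bp away.

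For the large subunit, the highest peak was at mRpL41 (2R, 15217024 to 15217617, minus strand), which has no bacterial counterpart. It ranked 19 in the IDR list with a signal of 1437.9, and 16 in replicate 1 and 27 in replicate 2, with the summit 132 bp upstream. The nearest divergent coding gene, CG8079, starts 762 bp from the mRpL41 start and so did not share the summit. A long noncoding RNA gene, lncRNA:CR44463, starts 446 bp from the summit in the same direction as mRpL41.

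mRpL23 (3L, 2372844 to 2373704, minus strand), whose bacterial counterpart sits beside the exit tunnel, ranked 80 with a signal of 873, and 83 in replicate 1 and 80 in replicate 2. It has 3 annotated start sites, and the summit lay 63 bp downstream of the nearest, in the 5′ untranslated region. The other 9 summits were intergenic. CG9004 starts 24 bp from mRpL23 in the opposite direction, and its start is 113 bp from the summit. mRpL20 (3L, 13017149 to 13017867, minus strand), counterpart of bacterial L20, ranked 649 with a signal of 318, and 575 in replicate 1 and 862 in replicate 2. Its summit lay 270 bp upstream and 129 bp from the start of Icmt, an isoprenylcysteine carboxyl methyltransferase.

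mRpL21 (3L, 19253290 to 19255061, minus strand), counterpart of bacterial L21, ranked 1729 with a signal of 187, and 2630 in replicate 1 and 1484 in replicate 2. The summit lay 160 bp upstream and 119 bp from rept, which encodes Reptin, an ATPase of chromatin remodelling complexes. mRpL19 (3R, 8674109 to 8675196, plus strand), counterpart of bacterial L19, ranked 1781 with a signal of 184, and 2017 in replicate 1 and 1922 in replicate 2. It had no other start site within 500 bp of its summit, 139 bp upstream.

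The median IDR rank was 1148.5 over the 10 mRp genes, 649 for mRpL and 1648 for mRpS, against 1343 over all coding genes with an IDR summit. The ranks covered most of the list: 4 of 10 lay among the 500 highest peaks (40%), against 23.8% of coding genes with an IDR summit, and 6 of 10 in the upper 1698 (60%), against 58.6%. In 6 of 10 cases the mRp gene had the nearest coding start to the summit, against 83.5% of all coding genes with an IDR summit. Counting each summit for its nearest gene alone left 6 of 73 mRp genes with an IDR summit, against 8.49% of coding genes. The lead of mRp genes over coding genes was thus not kept under this rule. It left 13 of 73 mRp genes with a pooled relaxed summit, for which no share of coding genes was computed.

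**Figure D2:**
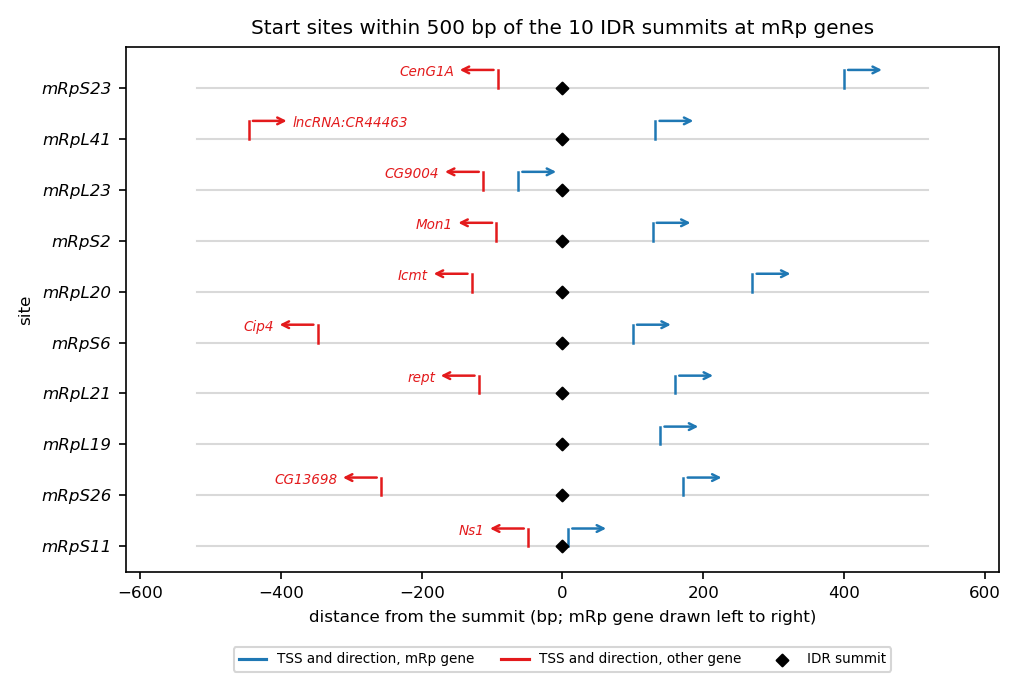
Start sites within 500 bp of the 10 IDR summits at mRp genes, with each gene drawn left to right and the summit, a black diamond, at 0 bp. Blue arrows are mRp genes and red arrows other genes. In 8 of the 10 sites a red arrow points away from the mRp gene, and in 7 of those the summit lies between the starts.

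Divergent arrangement is common among mRp genes. A coding gene started within 1000 bp upstream on the opposite strand at 58 of 73 mRp genes (79.5%), against 5056 of 13986 coding genes (36.2%), and the shares were alike in mRpL (37 of 47, 78.7%) and mRpS (21 of 26, 80.8%). The median distance between the starts was 283 bp, with a range of 20 to 793 bp, against 298 bp in divergent coding genes. The starts lay within 500 bp of each other at 53 of the 58 divergent mRp genes and 3818 of the 5056 divergent coding genes. Divergent mRp genes had an IDR summit in 9 of 58 cases (15.5%), against 13.4% of divergent coding genes. Those without a divergent neighbour had 1 of 15 (6.67%), against 8.15% of such coding genes. Divergent neighbours were also frequent in the gene lists compared below. The share was 64.3% for upkeep and transcription of mitochondrial DNA and 60.2% for the cytosolic ribosome. It was 50% for the respiratory chain and 41.7% for mitochondrial translation.

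The summit was within 500 bp of the divergent neighbour's start as well at 8 of the 10 mRp genes with an IDR summit, 3 of 5 mRpL and 5 of 5 mRpS. The same held for 31.7% of all coding genes with an IDR summit. Among the genes with an IDR summit that have a divergent neighbour, the count was 8 of 9 mRp genes (88.9%), against 65.8% of coding genes. These shares were not matched for the distance between the starts, which was more often within 500 bp in mRp genes. The summit lay nearer the neighbour at mRpS23, mRpS2, mRpL20 and mRpL21, and nearer the mRp gene at mRpL23, mRpS6, mRpS26 and mRpS11. Using a 250 bp window in place of 500 bp left 4 shared summits.

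Summits lay mostly upstream. Signed distance from the nearest start of the gene had a median of -136 bp over the 10 mRp genes, where negative is upstream, with quartiles of -169 and -107 bp and a range of -400 to 63 bp. In all coding genes with an IDR summit the median was -126 bp and the quartiles were -229 and 11 bp. Upstream summits made up 9 of 10 in mRp genes and 72.5% in coding genes. Among the 3396 highest peaks of replicate 2, the median was -165 bp over 13 mRp genes, which are not the same set. Among those of replicate 1 it was -130 bp over 10 mRp genes.

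**Figure D3:**
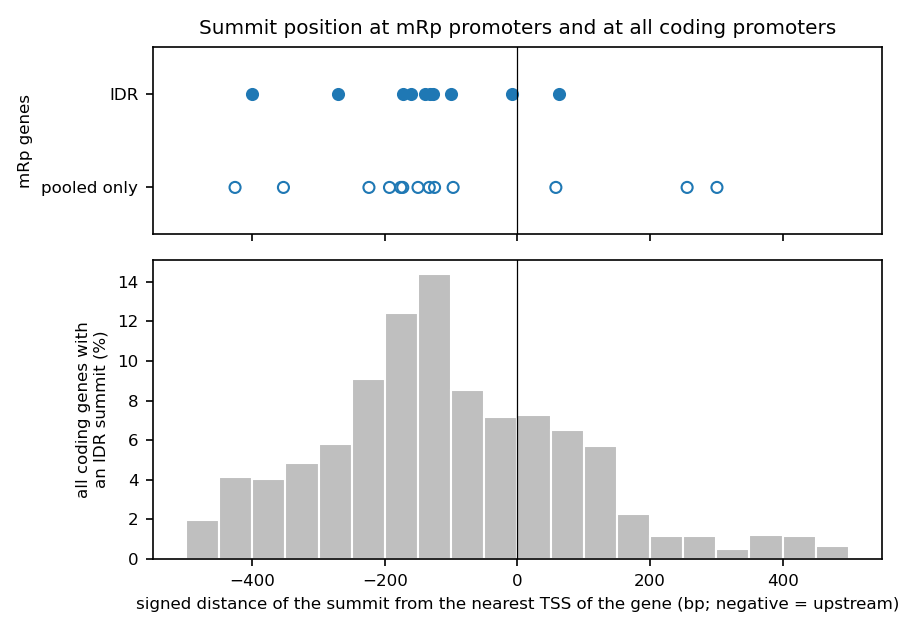
Signed distance in bp of the summit from the nearest TSS of the gene, negative upstream. The upper panel shows the 10 mRp genes with an IDR summit and the 13 with a pooled relaxed summit alone; the lower panel shows the share of all 1406 coding genes with an IDR summit in 50 bp bins. Most mRp points lie between -200 and 0 bp.

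The 13 mRp genes with a pooled relaxed summit below the IDR list had a median pooled rank of 5280. The nearest outside the list were mRpL32 at rank 3405, mRpL17 at rank 3561 and mRpL4 at rank 3587, just past the last IDR rank of 3396, whereas mRpS11 at rank 3103 was the nearest inside it. Of the 13, 12 had a summit in both replicates, and mRpS25, at pooled rank 26119, had one in replicate 2 alone. Their signed distances ran from -426 to 301 bp with a median of -150 bp, and 10 of 13 were upstream. A divergent neighbour shared the summit at 9 of the 13, and 79.5% of all mRp genes have such a neighbour. For these counts of the 13, no share was computed over coding genes with a pooled relaxed summit alone. The partners at these 9 mRp genes include Cdk1, the mitotic kinase, beside mRpS7, and HtrA2, a mitochondrial protease, beside mRpL11. Others are ATPsynD, a subunit of the ATP synthase, beside mRpL55, and qless, which makes the side chain of coenzyme Q, beside mRpL32. The rest are Tudor-SN beside mRpL17, Dg beside mRpL34, CG8176 and Kdm3 beside mRpL47, Droj2 beside mRpS21 and hzg beside mRpS31.

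At least 1 relaxed list held a summit at 31 of 73 mRp genes and 5322 of 13986 coding genes. The pooled list held one at 23 and 4077 of these. In 8 mRp genes a summit appeared in a replicate list but not in the pooled one. The highest was mRpL24, whose peak in replicate 2 ranked 553 with a signal of 184, at a signed distance of -131 bp from its start and 87 bp from betaggt-I, a geranylgeranyl transferase subunit. The nearest summit in replicate 1 was 14587 bp away and the nearest pooled summit 16846 bp away. Of the 3396 highest peaks of replicate 2, 171 (5.04%) had no pooled summit within 500 bp, against 106 (3.12%) in replicate 1. mRpS18B in replicate 1 ranked 3430 and mRpL53 in replicate 2 ranked 3393, and the remaining 5 ranked between 9759 and 29493. Beyond the 10, 3 of 73 mRp genes had an IDR summit between 500 and 1000 bp away, against 2.37% of coding genes. These lay at -563 bp for mRpS31, at 741 bp for mRpL55, and at -770 bp (rank 2646) and -970 bp (rank 1336) for mRpL2, where negative is upstream.

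Other genes of mitochondrial gene expression and energy were compared by lists of named genes. An IDR summit lay at 10 of 73 mRp genes (13.7%), against 10.1% of all coding genes. None lay at the 24 listed genes of mitochondrial translation, such as translation factors and aminoacyl-tRNA synthetases. A pooled relaxed summit lay at 23 of 73 mRp genes (31.5%) and at 1 of the 24 (4.17%), against 29.2% of all coding genes. Of 14 genes for upkeep and transcription of mitochondrial DNA, 2 had an IDR summit (14.3%): PNPase, a mitochondrial RNA exonuclease, at rank 10 with a signal of 1692.4, and mtSSB, a single-stranded DNA binding protein, at rank 2340. PNPase ranked 8 in replicate 1 and 11 in replicate 2. Of 88 respiratory chain genes, 3 had an IDR summit (3.41%), which were ATPsynbeta, COX7B and COX7C.

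The genes of the cytosolic ribosome differed from mRp genes in share and in position. An IDR summit lay at 10 of 73 mRp genes (13.7%) and at 52 of 93 cytosolic ribosomal protein genes (55.9%), against 10.1% of all coding genes. The median signed distance was -136 bp in mRp genes and 7.5 bp in cytosolic ones, and summits were upstream in 90% of mRp genes and 36.5% of cytosolic ones. The median IDR rank was 1148.5 in mRp genes and 550 in cytosolic ones. No test was made between the lists.

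**Figure D4:**
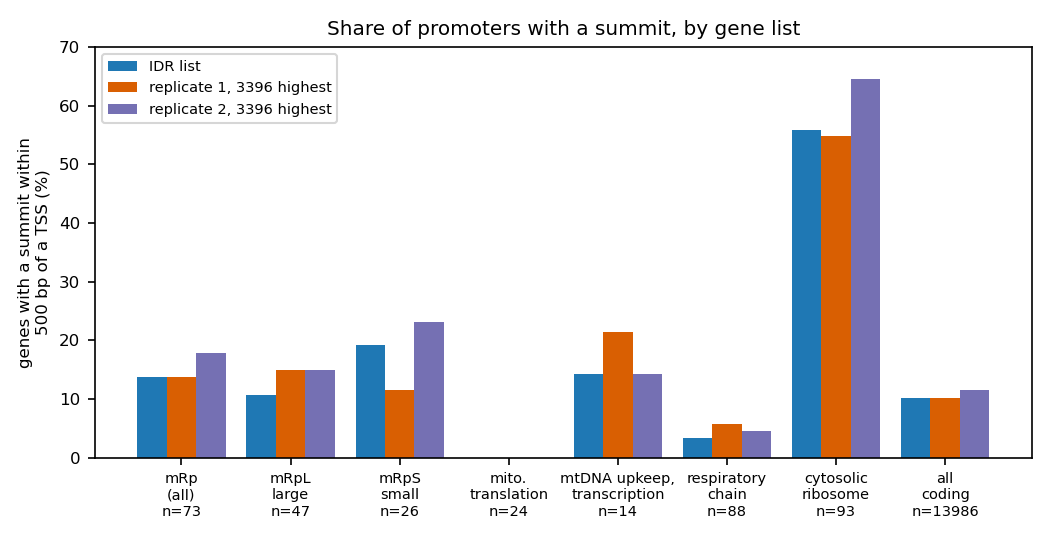
Percent of genes with a summit within 500 bp of a TSS, by gene list, in the IDR list (blue) and in the 3396 highest peaks of replicate 1 (orange) and replicate 2 (purple). The mRp bars stand at 13.7% to 17.8%, against 10.1% to 11.5% for all coding genes, and lie far below those of the cytosolic ribosome. Summits shared with a neighbour are counted for both genes. Bars are single shares with no error.

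DNA words that lead at IDR summits in general were counted at mRp summits and at all IDR promoter summits. The 10 mRp summits are too few to tell whether the shares are alike. The 10 leading 8-mers, on either strand, were chosen from 1444 candidates. They had the highest ratio of share within 50 bp of IDR summits to share in flanks centred 300 bp away. The mRp summits were left out of this choice, whereas the other promoter summits were part of it. An excess of the chosen words at IDR summits therefore follows from the choice. These words were led by TAGGTAAA at 1.15% against 0.222%, AATATTGA at 2.69% against 0.561% and ACCGGAAA at 1.03% against 0.222%. Any of them occurred at 1 of 10 mRp summits, against 147 of 1323 IDR summits at coding promoters (11.1%). That site was mRpL23, with TGATATTA, the reverse complement of TAATATCA. With 10 sites, 1 site is 10% of the set. Within 25 bp of the summit the count was 0 of 10, against 5.82% of IDR promoter summits. Within 100 bp it was 1 of 10, against 18.2%. TATAAA occurred at mRpL19 and mRpL23, 2 of 10, against 23.0% of IDR promoter summits. The E-box, the DNA replication-related element, Motif 1, the GAGA word and the Zelda word, CAGGTAG, occurred at 0 of 10 mRp summits. Of IDR promoter summits 4.91% held the E-box and 14% the GAGA word. The DNA replication-related element was at 1.06% of them, Motif 1 at 0.907% and the Zelda word at 0.68%.

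Away from the summits, the E-box CAGCTG, known as a core promoter element of many fly genes, was more frequent in mRp promoters than in coding promoters. In windows of 250 bp upstream to 50 bp downstream of the 5′-most start, searched on both strands, it was found in 40 of 73 mRp promoters (54.8%), against 2468 of 13968 coding promoters (17.7%). It was in 27 of 47 mRpL promoters (57.4%) and 13 of 26 mRpS promoters (50%). Among promoters with an IDR summit it was in 6 of 10 mRp promoters, against 23.0% of coding ones, and in mRp promoters without one it was in 34 of 63 (54.0%). Within mRp genes the share thus differed little with the presence of a summit. The matches sat at the start site: the start of the match nearest the TSS had a median position of 4 bp in mRp promoters and -45 bp in coding promoters, and it lay within 25 bp of the TSS in 28 mRp promoters (38.4%), against 827 coding promoters (5.92%).

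In the 6 bound mRp promoters with an E-box, the summit stood 114 bp from the centre of the nearest E-box at mRpL23 and mRpS2, 117 bp at mRpS6, 126 bp at mRpL41, 140 bp at mRpL21 and 150 bp at mRpL19. At mRpS2 the nearest of its 2 E-boxes starts at -245 bp, outside the stretch printed above, and the one beside the start site lies 120 bp from the summit. The median of the 6 was 122 bp. It was 140 bp over the 272 coding promoters that hold an E-box and have their IDR summit within 500 bp of the 5′-most start. The DNA replication-related element TATCGATA was found in 15 mRp promoters (20.5%), against 9.36% of coding promoters. Among promoters with a divergent neighbour the shares were 20.7% in mRp genes and 15.8% in coding genes. Of its 15 mRp carriers 3 had an IDR summit, mRpL19, mRpL20 and mRpS23, against 12.4% of coding carriers. Motif 1, GGTCACACT, was found in 8 mRp promoters (11%), against 6.04% of coding promoters, and with a divergent neighbour in 12.1% of mRp promoters and 10.4% of coding ones. The E-box was in 53.4% of divergent mRp promoters and 22.0% of divergent coding promoters. GAGAG was found in 12 mRp promoters (16.4%), against 29.8%, and TATAAA in 34 (46.6%), against 45.9%. A match of letters is a description and shows no bound factor.

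**Figure D5:**
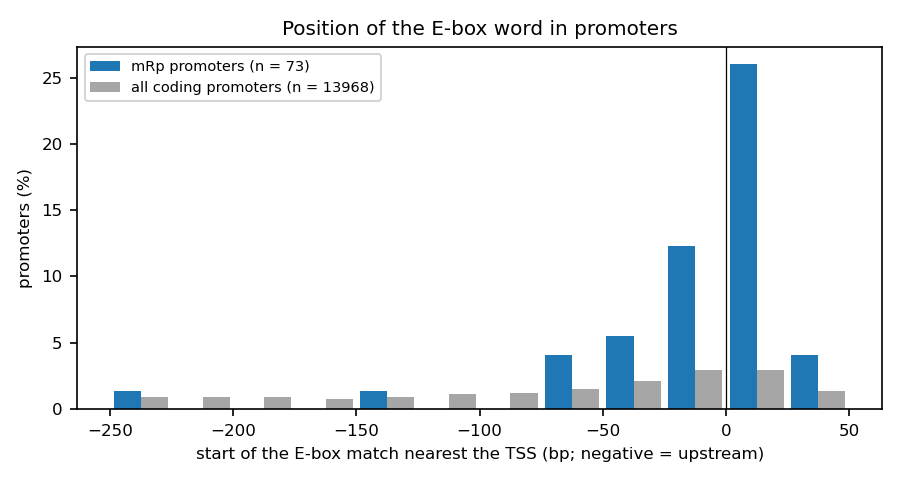
Percent of promoters whose E-box match nearest the TSS starts in each 25 bp bin, for mRp promoters (blue, n = 73) and all coding promoters (grey, n = 13968); negative positions are upstream. The bin from 0 to 25 bp holds 26.0% of mRp promoters and 2.91% of coding promoters.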

How the data were processed

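Peaks came from 2 ChIP-seq replicates of 1 group. The authors deposited narrowPeak lists on dm6, per the labels: 3 relaxed lists of 30000 peaks and an IDR list of 3396. In the deposited lists each peak carries a signal value, a −log10 q-value and a summit offset; the q-values were not used. The sources used here name no aligner, peak caller, settings or IDR cutoff. Nothing is known of read depth.

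Summits (start plus offset) were assigned to coding genes of Ensembl release 115 (BDGP6.54) within 500 bp of any TSS. A divergent neighbour starts within 1000 bp upstream on the opposite strand. Replicate summits were matched within 100 bp. Sequences were read from the Release 6 genome. Counting and k-mer steps were tested on simulated data. Python 3.11.15 and numpy 2.4.6 were used. The named genes were all mRp genes with an IDR summit, and up to 4 bound genes of each comparison list. Of the listed symbols, 24 of 33 matched for mitochondrial translation and 14 of 16 for genome upkeep. The members and lists were chosen with earlier results of these data known. Alternatives tried were other windows, 1 TSS a gene, the upper part of the IDR list, each replicate alone, nearest gene only, and other match distances.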

Additional observations from a re-analysis of the deposited data

How the results depend on the processing

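Over 53 recomputed values 34 stayed close to the reported one and 19 moved. Only the median signed distance could change sign, and it did not. The limit for a close count was wide: 12 shared divergent summits with a 1000 bp window, against the reported 8, passed as close. Keeping the upper 1698 IDR peaks left 6 mRp genes (3 mRpL, 3 mRpS), 5 shared divergent summits and 5.89% of coding genes; it has no counterpart for the pooled relaxed list. Counting a summit only for its nearest gene left 6 mRp genes with an IDR summit (3 mRpL, 3 mRpS), 13 with a pooled relaxed summit, 4 shared divergent summits and 8.49% of coding genes. The share of coding genes was 7.79% with a 250 bp window, 12.4% with 1000 bp and 8.42% with 1 TSS a gene, and the 250 bp window left 4 shared summits. With either replicate left out, the 3396 highest peaks of the other gave 3 to 6 mRpS genes, 10.2% to 11.5% of coding genes and a median distance of -165 to -130 bp. Within 25 bp of the summit 0 mRp summits held a leading 8-mer, against 5.82% of IDR promoter summits. The causes were not tested. No paired analysis was possible because the series has 1 group. With 10 bound genes, each gene is 10% of the set, and unknown depth leaves weak or absent peaks unresolved.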
